A study of Mus musculus with 4 samples.

Results

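The SR splicing factors described here are the 10 genes Srsf1, Srsf2, Srsf3, Srsf4, Srsf5, Srsf6, Srsf7, Srsf9, Srsf10 and Srsf11 of the mouse C2C12 line, an immortalised myoblast line that fuses into myotubes when serum is reduced. They were found by their gene symbol. Each had a single entry, with an estimate marked as successful, in all 4 expression tables, so that 10 of the 24850 named entries of the total RNA tables and 10 of the 24992 entries of the polyA tables are members. The total RNA tables hold 61630 entries in all, the others being assembled transcript units without a gene symbol.

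Total RNA depleted of ribosomal RNA was sequenced from myoblasts (MB, taken at -24 h relative to the switch to differentiation medium, DM) and from myotubes (MT, 72 h in DM). PolyA RNA was sequenced from MT transfected with an siRNA against hnRNPL (si-hnRNPL) or a negative control siRNA (si-NC), both at 48 h in DM. All 4 libraries came from the same cell line, the labels name no allele or further agent, and there was 1 library per condition, so differences rest on single libraries and carry no p-value. The cell type label reads C2C12 myoblasts for every sample, and the titles and the DM hours separate MB from MT. The hours are those of the labels, and a legend in the study's supplement gives another hour for MT, so the MT time is uncertain.

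SR proteins bind exonic splicing enhancers through 1 or 2 RNA recognition motifs (RRMs) and contact the splicing machinery through a domain rich in arginine and serine, which SRPK and CLK kinases phosphorylate. They help U1 and U2 snRNP recognise the splice sites, and several of them also shuttle to the cytoplasm with spliced mRNA. Many SR protein genes contain a conserved exon that, when included, sends their own mRNA to nonsense-mediated decay, so that an SR protein can hold down its own level. Alternative splicing changes widely during muscle differentiation.

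The 10 genes lie at 10 separate loci in mm9. Of the members with 2 RRMs, Srsf1 lies at chr11:87860875-87867259, Srsf4 at chr4:131429554-131457640, Srsf5 at chr12:82046491-82051494, Srsf6 at chr2:162757244-162762856 and Srsf9 at chr5:115777186-115783089, all on the + strand. Of those with 1 RRM, Srsf3 at chr17:29169605-29180317 and Srsf10 at chr4:135411986-135425814 lie on the + strand. Srsf2 at chr11:116711211-116714408, Srsf7 at chr17:80599420-80606645 and Srsf11 at chr3:157673457-157699603 lie on the - strand. The polyA tables place Srsf5 at chr12:82046486-82051493, a slightly different gene model.

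Some features of gene structure, which the selection did not use, recurred among the members. GENCODE annotates a nonsense-mediated decay transcript for 5 of the 10 (Srsf1, Srsf2, Srsf3, Srsf5 and Srsf11), against 11.2% of 22215 protein-coding genes. A retained-intron transcript is annotated for the same 5 members, against 23.2% of those genes, and the other 5 members have neither. A processed transcript is annotated for 5 members (Srsf4, Srsf5, Srsf6, Srsf9 and Srsf10), against 24.8% of those genes. These are labels of GENCODE M1, and a missing label does not show that a gene lacks such a transcript. The median exon length of the members was 3892 bp and their median exon GC content 41.1%, against 2754 bp and 49.1% over the same genes. Srsf9 (1360 bp) and Srsf7 (2375 bp) were shorter than the median of those genes, and Srsf9 (55.6% GC) and Srsf4 (54.1% GC) were richer in GC. The longest annotated coding sequence runs from 164 codons in Srsf3, the smallest of the family, to 496 codons in Srsf4 and 511 codons in Srsf11.

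Their promoters were taken from RefSeq (assembly GRCm38.p6) as the 250 bases before each annotated start, which gave 13 windows for the 10 members, all of which matched. For Srsf4, the windows chr4:131873387-131873636 and chr4:131873389-131873638 are nearly the same sequence, so their motifs are counted in both. The member windows had a median GC content of 68.4% (range 56.8 to 78.0%) against 52.4% for all 32851 windows. Their CpG dinucleotides stood at a median of 0.98 times the number that the base composition predicts (range 0.72 to 1.2003), against 0.37 for all windows. The GC box, GGGCGG, occurred in 12 of the 13 member windows and in 32.7% of all windows. Those member windows belong to 9 members, all but Srsf3. The E-box, CANNTG, the core that MyoD and myogenin bind, occurred in 8 of the 13 member windows and in 66.2% of all windows. Those 8 windows belong to 6 members (Srsf1, Srsf2, Srsf3, Srsf4, Srsf5 and Srsf11). The CCAAT letters occurred in 3 member windows (Srsf2, Srsf3 and Srsf10), against 33.8% of all windows. TATAAA occurred in 2 member windows (Srsf2 and Srsf3), against 12.4%. The E2F spellings TTTGGCGC, TTTCGCGC, TTTCCCGC or TTTGCCGC occurred in 2 member windows (Srsf1 and Srsf10), against 1.86%. TGACGTCA, the cyclic AMP response element, occurred in no member window and in 1.55% of all windows. Both strands were searched, and a match is a description of letters only.

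Of these windows 4 are printed, 5' to 3' on the gene's strand, because they belong to Srsf5, the member that stood higher in MT, and to Srsf7, Srsf9 and Srsf2, the members with the largest decreases in MT in the FPKM as deposited. Capitals mark every match to the motifs above. The GRCm38.p6 positions are chr12:80945249-80945498 (+) for Srsf5, chr17:80207306-80207555 (-) for Srsf7, chr5:115326927-115327176 (+) for Srsf9 and chr11:116853095-116853344 (-) for Srsf2. In Srsf5 the E-box nearest the start and the GC box beside it share a base.
Srsf5: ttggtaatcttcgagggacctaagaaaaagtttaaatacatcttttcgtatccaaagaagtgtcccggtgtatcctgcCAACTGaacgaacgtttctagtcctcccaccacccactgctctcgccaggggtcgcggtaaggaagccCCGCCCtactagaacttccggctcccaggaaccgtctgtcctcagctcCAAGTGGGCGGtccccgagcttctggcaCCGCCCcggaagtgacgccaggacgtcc
Srsf7: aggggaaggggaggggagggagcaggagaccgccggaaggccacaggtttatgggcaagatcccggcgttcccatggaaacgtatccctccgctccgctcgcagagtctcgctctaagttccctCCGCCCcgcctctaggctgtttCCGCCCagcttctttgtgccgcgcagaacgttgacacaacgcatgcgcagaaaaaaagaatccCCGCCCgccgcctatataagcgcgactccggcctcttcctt
Srsf9: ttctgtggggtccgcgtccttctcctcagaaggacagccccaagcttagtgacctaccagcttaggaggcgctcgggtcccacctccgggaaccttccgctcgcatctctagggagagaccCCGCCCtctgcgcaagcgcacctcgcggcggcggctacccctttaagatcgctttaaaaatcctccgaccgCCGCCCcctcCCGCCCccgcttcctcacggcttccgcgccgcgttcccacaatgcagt
Srsf2: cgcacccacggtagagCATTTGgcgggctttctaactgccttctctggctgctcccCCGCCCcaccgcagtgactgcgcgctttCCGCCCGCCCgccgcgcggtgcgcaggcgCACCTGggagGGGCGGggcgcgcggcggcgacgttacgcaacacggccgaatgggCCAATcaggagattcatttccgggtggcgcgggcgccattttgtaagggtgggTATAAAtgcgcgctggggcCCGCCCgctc
The Srsf5 window holds E-boxes and GC boxes, the Srsf7 and Srsf9 windows hold GC boxes alone, and the Srsf2 window holds E-boxes, GC boxes, a CCAAT box and a TATA box.

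Levels are given as FPKM, mapped fragments per kilobase of transcript scaled to the size of the library, which is per length and so can order genes within a library. The range after each value is the 95% interval deposited with it, which covers counting and assignment error within that library and not the spread between cultures. In MB, Srsf3 (130, 128 to 132) and Srsf2 (129, 127 to 131) were the highest members, with overlapping intervals. Srsf3 is an SR protein that also serves as an adaptor for mRNA export, and Srsf2 (SC35) stays in nuclear speckles. Srsf5 stood at 81.8 (79.6 to 84.1), Srsf7, the export adaptor with a zinc knuckle, at 74.1 (72.5 to 75.7), and Srsf1, the prototype of the family, at 71.4 (70.5 to 72.3). Srsf6 stood at 71.0 (70.0 to 72.0), which overlaps Srsf1, and Srsf9 at 58.9 (57.2 to 60.5). Srsf10, which represses splicing when it is dephosphorylated, stood at 52.4 (51.4 to 53.4) and Srsf11 at 30.6 (29.9 to 31.3). Srsf4, the member with the longest arginine- and serine-rich domain of the group with 2 RRMs, was far below the others at 4.86 (4.53 to 5.20), and the highest member exceeded it 26.7-fold.

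In MT the order changed at the top. Srsf5 was first at 95.9 (94.0 to 97.8), followed by Srsf3 at 64.5 (63.2 to 65.7) and Srsf2 at 55.7 (54.5 to 56.9), with no overlap between these neighbours. Srsf6 stood at 47.8 (47.0 to 48.6), Srsf1 at 36.9 (36.1 to 37.7) and Srsf10 at 35.96 (35.1 to 36.8), the last pair overlapping. Srsf7 stood at 30.8 (29.9 to 31.7), Srsf9 at 24.6 (23.5 to 25.6), Srsf11 at 22.6 (22.0 to 23.2) and Srsf4 at 2.61 (2.37 to 2.85). Among all named entries, Srsf5 moved from rank 937 in MB to rank 516 in MT.

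The polyA libraries of MT also had Srsf5 first, then Srsf3, Srsf2 and Srsf6. In si-NC, Srsf5 stood at 175 (169 to 181), Srsf3 at 123 (118 to 128), Srsf2 at 113 (111 to 116) and Srsf6 at 87.7 (86.0 to 89.5). Srsf10 at 57.8 (55.7 to 59.8), Srsf9 at 55.3 (51.8 to 58.7) and Srsf1 at 54.1 (51.9 to 56.3) followed, each overlapping the next. Srsf7 at 49.5 (47.6 to 51.4) and Srsf11 at 48.7 (46.5 to 50.9) overlapped as well, and Srsf4 was again lowest at 5.998 (5.36 to 6.63). Srsf12, a family gene that is not among the 10, was at 0.0043 FPKM in MB and 0.0083 FPKM in MT and was listed at 0 in both polyA libraries.

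**Figure D1:**
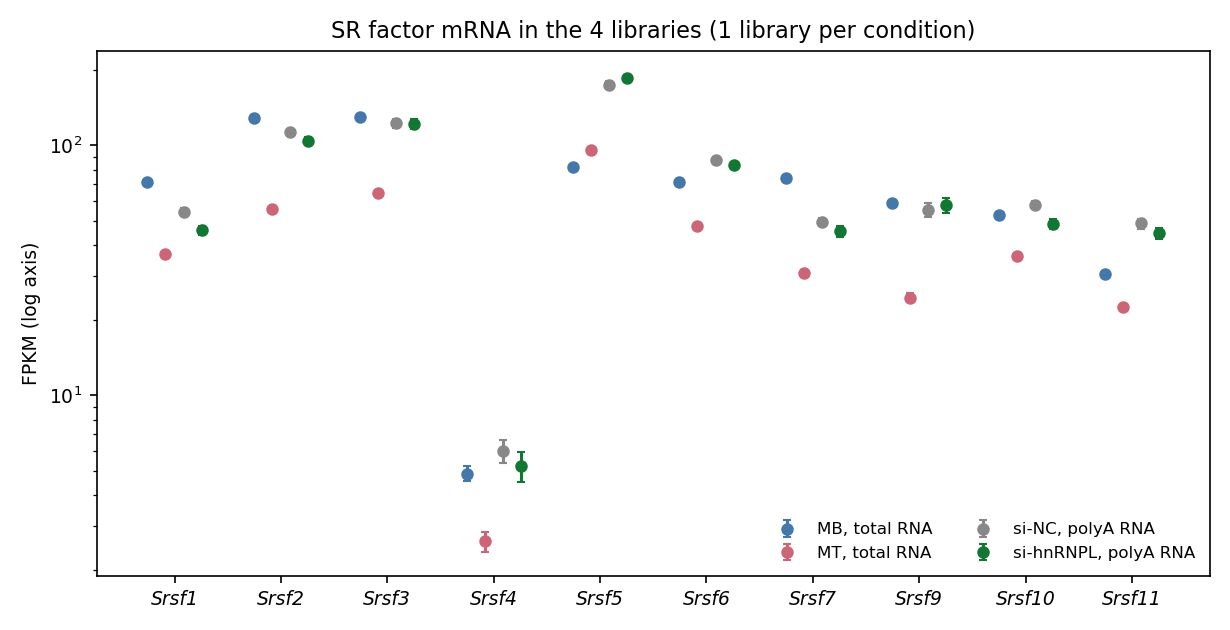
FPKM of the 10 SR factors (columns) on a vertical log axis in the 4 libraries, 1 per condition, with the deposited 95% intervals as bars. Srsf5 is the only member whose MT point lies higher than its MB point, and Srsf4 lies far below the others in every library. Total RNA and polyA points share the axis but were prepared and quantified separately.

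From MB to MT, 6 of the 10 SR factors decreased by at least 1.5-fold, 3 had smaller changes below 0, and Srsf5, a protein with 2 RRMs, had a small change above 0. On the log2((FPKM + 1) ratio) scale, which understates the change of low genes, Srsf7 fell by 1.24 (interval of the change -1.29 to -1.19), Srsf9 fell by 1.23 (-1.30 to -1.16) and Srsf2 fell by 1.19 (-1.23 to -1.16), which left 41.6%, 41.7% and 43.3% of their MB level. Srsf3 fell by 1.00 (-1.03 to -0.97) and Srsf1 fell by 0.93 (-0.97 to -0.90), to 49.6% and 51.7%. Srsf4 fell by 0.70 (-0.83 to -0.58), to 53.6%. These 6 members passed the study's 1.5-fold threshold of 0.58 and no member passed it upwards. Of the 11486 named entries with a mean FPKM of at least 1, 28.9% were lower and 14.6% were higher. At a mean FPKM of at least 10, which leaves out Srsf4, 5 of 9 members were lower. Among all entries at that level 34.7% were lower and 10.6% higher.

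The remaining members changed by less than the threshold. Srsf6 had a log2 change of -0.56 (-0.59 to -0.53), Srsf10 of -0.53 (-0.58 to -0.49) and Srsf11 of -0.42 (-0.47 to -0.37). The intervals of Srsf4 and Srsf6 both included the threshold, so these members are not separated by it. Srsf5 had a log2 change of 0.23 (0.18 to 0.28), 117% of its MB level. Its MB and MT intervals did not overlap, and for each of the other 9 members the MT interval lay wholly below the MB interval. No share over all entries is given for level intervals, and the shares that follow are for the interval of the change. An interval of the change wholly below 0 was found for 9 of the 10 members and for 56.5% of all entries tested, and wholly above 0 for 1 member and 32.9% of entries. Among the 6642 entries with a mean FPKM of at least 10, which leaves out Srsf4, these shares were 8 of 9 members against 64.9%, and 1 of 9 members against 26.8%.

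Over all entries tested the median log2 change was -0.21 (quartiles -0.66 and 0.27), so a lower value in MT was common, and the members' median was -0.82. Relative to the median of all entries, the members' median was -0.61, Srsf5 stood at 0.44, Srsf11 at -0.21 and Srsf7 at -1.03. Counted on that centred scale, 5 members were lower and 0 higher at the same threshold, against 19.4% and 21.1% of all entries, Srsf4 at -0.49 being the member no longer counted. The members with 1 RRM had a median of -0.9995 with 3 of 5 lower, and those with 2 RRMs a median of -0.70 with 3 of 5 lower. The changes ran from -1.24 to -0.42 with 1 RRM and from -1.23 to 0.23 with 2 RRMs.

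The scale of the libraries bears on these values. When FPKM was rescaled to the summed FPKM of named entries that are not small RNA genes, the median of all entries moved to 0.12. The split turned from 1672 higher and 3317 lower of 11486 entries to 2937 higher and 1780 lower of 11517 entries. On that scale 4 members were lower (Srsf7 at -0.87, Srsf9 at -0.86, Srsf2 at -0.82 and Srsf3 at -0.63), Srsf5 was higher at 0.60, and Srsf11 stood at -0.06, while Srsf1 at -0.57 and Srsf4 at -0.41 were no longer counted. Set against genes of like exon length and GC content, Srsf3 had the lowest value at -1.49, ahead of Srsf7 at -1.33, Srsf2 at -1.15 and Srsf9 at -1.05. On that scale Srsf4 stood at -0.54, short of the threshold. Srsf6 at -0.62, Srsf10 at -0.99 and Srsf11 at -0.64 passed it, so that 8 members were lower and 0 higher. Among all entries with a known exon length and GC content, 2922 were lower and 1431 higher. The signs of all 10 members were kept under both corrections, and Srsf5 stayed above 0 under every alternative tried, between 0.11 and 0.60.

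**Figure D2:**
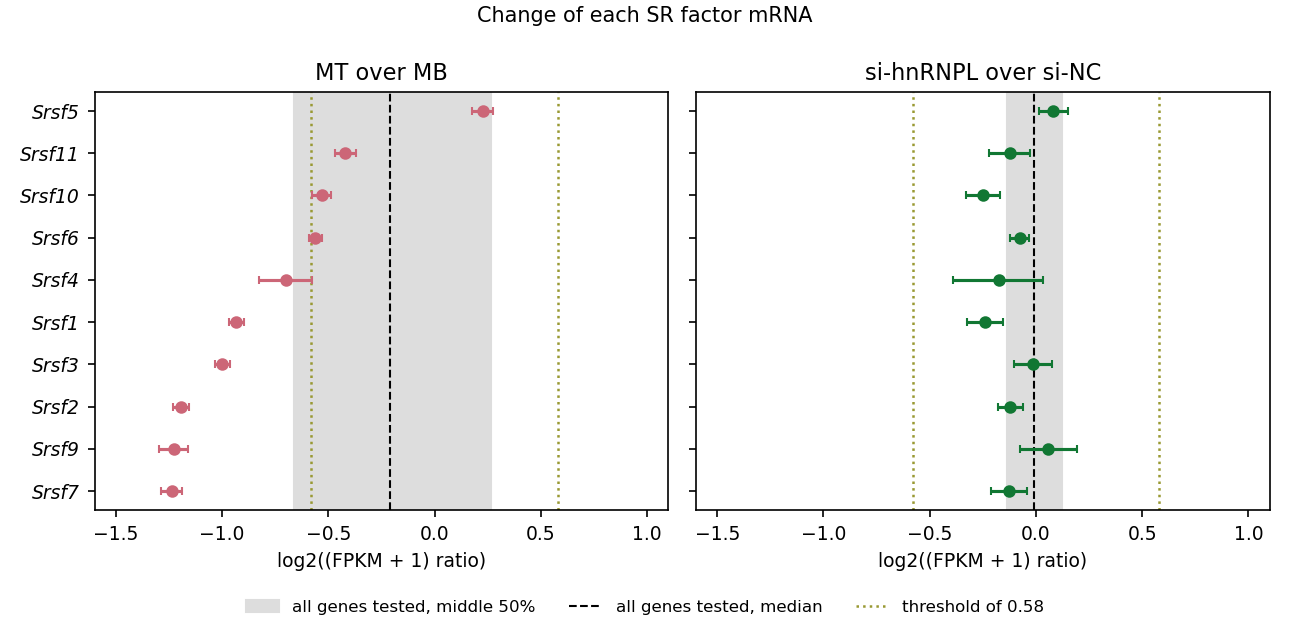
Log2((FPKM + 1) ratio) of each SR factor for MT over MB (left) and si-hnRNPL over si-NC (right), with intervals computed from both libraries, the 1.5-fold threshold, and the median and middle 50% of all entries tested. On the left 6 members lie beyond the lower threshold and Srsf5 alone lies above 0, whereas on the right every member lies inside the thresholds. Both panels have the same range.

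The MB to MT difference in makeup was largest for Srsf5. The summed FPKM of the 10 members was 704 (699 to 708) in MB and 417 (414 to 421) in MT. Over all entries the summed FPKM was lower in MT as well, 650275 in MB and 337279 in MT. After rescaling, the members summed to 618 in MB and 475 in MT. Srsf5 made up 11.6% (11.3 to 11.9) of the members' sum in MB and 23.0% (22.6 to 23.4) in MT. The share of Srsf2 went from 18.3% to 13.3%, of Srsf3 from 18.5% to 15.4%, of Srsf7 from 10.5% to 7.39% and of Srsf9 from 8.36% to 5.88%. Srsf6 went from 10.1% to 11.5%, Srsf10 from 7.45% to 8.62% and Srsf11 from 4.35% to 5.41%, so these 3 members gained share while their FPKM was lower.

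A ratio within a library does not depend on how that library is scaled. The level of Srsf5 was 0.636 times that of Srsf2 in MB (0.616 to 0.655) and 1.72 times in MT (1.67 to 1.77). Against Srsf7 it was 1.104 times in MB and 3.11 times in MT, and against Srsf9 1.39 and 3.91 times. Intervals of these ratios did not overlap between MB and MT for any of the 9 partners. No share over other pairs of genes is given, so no result is read from this count. Srsf5 alone had a change above 0, so a higher ratio to each partner in MT was given beforehand. Counting intervals are also narrow. For single genes, the interval of the change lay wholly below 0 for 56.5% of all entries tested and wholly above 0 for 32.9%. In the polyA library of si-NC, made with another kit and at another time in DM, Srsf5 made up 22.7% (22.1 to 23.3) of the summed FPKM and stood at 1.54 times Srsf2, 3.54 times Srsf7 and 3.17 times Srsf9. FPKM levels were not compared between the total RNA and polyA tables, which were prepared and quantified separately. Only shares and ratios within a library are set side by side.

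**Figure D3:**
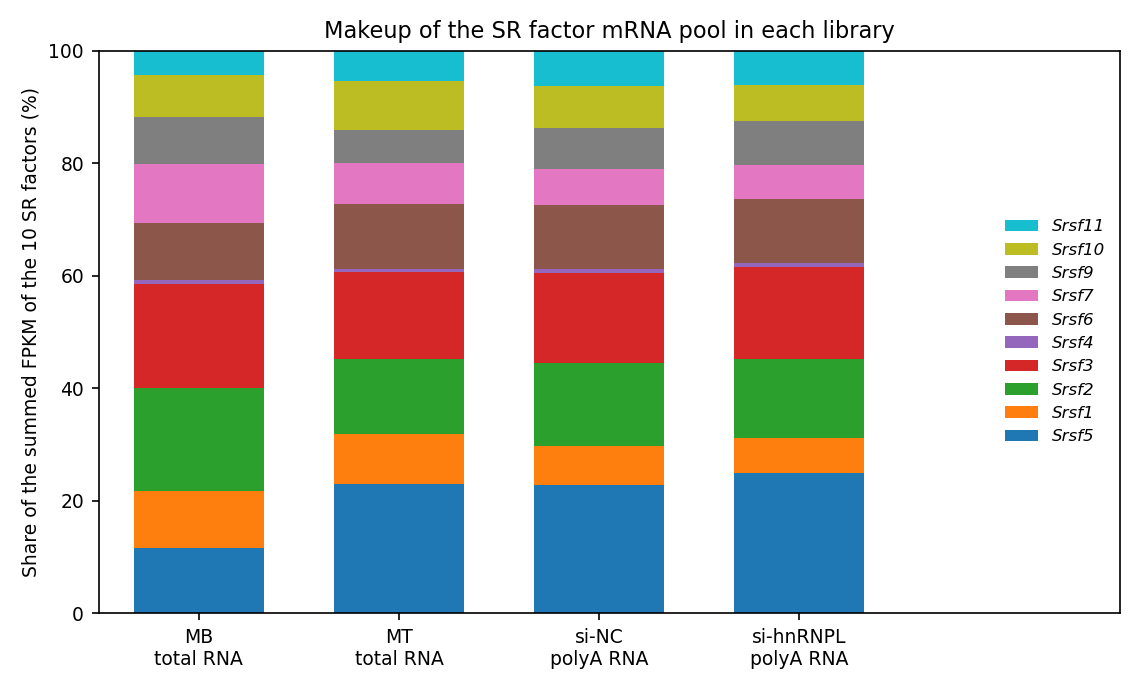
Share of the summed FPKM of the 10 SR factors taken by each member, in percent, with 1 bar per library. The Srsf5 segment takes 11.6% of the MB bar, 23.0% of the MT bar, 22.7% of the si-NC bar and 24.995% of the si-hnRNPL bar.

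Markers of the culture's state also differed between MB and MT. Every one of the 6 myotube markers listed in the total RNA tables (Myog, Myh3, Ckm, Mylpf, Acta1 and Tnnt3) was higher in MT, by 5.19 to 7.52 on the log2 scale, and their summed FPKM went from 16.3 to 1740. All 5 markers of proliferating cells (Mki67, Top2a, Ccnb1, Cdk1 and Pcna) were lower, by -3.08 to -1.70, and their sum went from 623 to 140. Of the 3 myoblast lineage markers, Myod1 at 0.83 and Des at 0.98 were higher, and Myf5 at -0.01 did not pass the threshold. The part of these markers in the SR factor differences was not tested. In such bulk samples fewer cells of a type and less RNA per cell cannot be told apart. Hnrnpl itself, the gene targeted in the polyA libraries, was at 111 FPKM in MB and 63.0 FPKM in MT, a log2 change of -0.81.

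For 4 members, sequence copies elsewhere in mm9 limit the values. The coding sequence of Srsf3 matched 5 other places over at least 50% of its length at 90% identity or more, the closest at 99.6%. Srsf10 matched 2 other places (up to 97.6%), Srsf5 matched 1 (98.6%) and Srsf7 matched 1 (92.8%). How fragments that fit several places were assigned is not given in the sources used here, so the levels of these members are uncertain to that degree. The place matched by Srsf7 lies within Tcf12, at 37.0 FPKM in MB and 48.2 FPKM in MT, and none of the other places lies in a named entry.

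Within the loci of the members, the MB and MT tables hold 5 assembled transcript units, with no strand given. The 3 units inside Srsf11 share no base with its annotated exons. A unit of 309 bp, 987 bp inside the gene's start, was at 0.968 FPKM (0.409 to 1.53) in MB and 2.95 FPKM (2.01 to 3.90) in MT, and a neighbouring unit of 588 bp at 1.38 FPKM (0.986 to 1.77) and 2.46 FPKM (1.95 to 2.97). Their log2 changes were 1.01 (0.47 to 1.58) and 0.54 (0.22 to 0.87), the second short of the threshold, beside -0.42 for the gene's own entry. The intervals of the third, 231 bp long, overlapped at 2.11 FPKM in MB and 2.93 FPKM in MT.

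Inside Srsf4, a unit of 5686 bp was at 2.16 FPKM in MB and 1.78 FPKM in MT, and a unit of 264 bp at 4.35 and 1.92 FPKM. The larger shares 794 bases with annotated Srsf4 exons. Gm12992, annotated as a processed transcript on the opposite strand, overlaps the 3' end of Srsf4 and shares 1551 bases with its exons. It was at 5.92 FPKM in MB and 3.41 FPKM in MT, a log2 change of -0.65 beside -0.70 for Srsf4, and the counting is not stated to use strand, so the values of the pair are uncertain.

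In MT transfected with the siRNA against hnRNPL, a splicing regulator that binds CA-rich RNA, no SR factor differed from si-NC by 1.5-fold. Hnrnpl was at 95.1 FPKM (92.7 to 97.5) in si-NC and 85.9 FPKM (83.1 to 88.7) in si-hnRNPL. By this log2 change of -0.14 (-0.20 to -0.09) the targeted transcript itself was lower by less than the threshold. The study examined the knockdown on protein, by Western blot, and RNA in 1 library is a different measure. For the members, 0 of 10 were higher and 0 of 10 lower at 0.58, against 1.36% and 0.863% of the 11234 entries tested. The members summed to 770 FPKM (761 to 780) with the control siRNA and 741 FPKM (730 to 752) with si-hnRNPL.

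The lowest ratios were those of Srsf10 and Srsf1. Srsf10 was at 57.8 FPKM (55.7 to 59.8) in si-NC and 48.4 FPKM (46.3 to 50.6) in si-hnRNPL, a log2 change of -0.25 (-0.33 to -0.17). Srsf1 was at 54.1 FPKM (51.9 to 56.3) and 45.7 FPKM (43.7 to 47.7), a log2 change of -0.24 (-0.32 to -0.15). The level intervals of the 2 libraries did not overlap for these genes, nor for Srsf2, Srsf6 and Srsf7. No share over all entries is given for that criterion, so no result is read from it. The shares below are for the interval of the change, a different criterion.

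Srsf2 went from 113 to 104 FPKM (log2 change -0.12, -0.18 to -0.06), Srsf7 from 49.5 to 45.3 FPKM (-0.13, -0.21 to -0.04), Srsf11 from 48.7 to 44.6 FPKM (-0.12, -0.22 to -0.03) and Srsf6 from 87.7 to 83.2 FPKM (-0.08, -0.12 to -0.03). The interval of the change included 0 for 3 members. Srsf3 was at 123 FPKM in si-NC and 122 FPKM in si-hnRNPL, Srsf9 at 55.3 and 57.6 FPKM, and Srsf4 at 5.998 and 5.20 FPKM. Srsf5 was at 175 FPKM (169 to 181) and 185 FPKM (179 to 192), a log2 change of 0.08 (0.01 to 0.15), and the intervals of its 2 levels overlapped.

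An interval of the change wholly below 0 was thus found for 6 of 10 members against 26.8% of all entries tested, and wholly above 0 for 1 of 10 against 20.7%. Among entries with a mean FPKM of at least 10, these were 6 of 9 members against 28.2% and 1 of 9 against 26.8%. The members' median was -0.12, and that of all entries -0.01 (quartiles -0.14 and 0.12), so that 7 of the 10 members lay within the middle 50% of entries.

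The small differences depended on gene structure and scale. Set against genes of like exon length and GC content, Srsf10 stood at -0.09 and Srsf1 at -0.11, and Srsf3, Srsf6, Srsf9 and Srsf11 changed sign. After rescaling to named entries that are not small RNA genes, which moved the median of all entries to -0.11, Srsf5 stood at -0.03 and Srsf9 at -0.05. No direction is therefore given for Srsf3, Srsf5, Srsf6, Srsf9 or Srsf11 in si-hnRNPL. None is given for Srsf4 either, because its interval of the change ran from -0.39 to 0.03. Srsf5 took 24.995% (24.3 to 25.7) of the members' sum in si-hnRNPL against 22.7% (22.1 to 23.3) in si-NC, and stood at 4.05 times Srsf1 (3.82 to 4.29) against 3.23 times (3.07 to 3.40).

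The state of the culture differed between the 2 polyA libraries as well. All 7 myotube markers, Mymk included, had log2 changes above 0 in si-hnRNPL (0.36 to 0.71, 3 of 7 past the threshold), and their summed FPKM was 2986 in si-NC and 4486 in si-hnRNPL. All 5 proliferation markers had changes below 0 (-0.62 to -0.31, 2 of 5 past the threshold), with sums of 329 and 241. Among the lineage markers, Des stood at 0.20, Myod1 at 0.17 and Myf5 at -0.40, none past the threshold. The part of these markers in the SR factor values was not tested.

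Other genes of the splicing pathway were counted at the same threshold as the SR factors, of which 6 of 10 were lower. Of 18 proteins of U1 snRNP, U2 snRNP and U2AF, which SR proteins help to recruit, 13 were lower and 0 higher in MT, with a median of -1.03 and a range from Snrpa1, a U2 snRNP protein, at -1.96 to U2af1l4 at -0.28. Of 12 mRNA export and exon junction proteins, 8 were lower and 1 higher (median -0.90), from the export helicase Ddx39 at -1.99 to Thoc2, a THO complex subunit, at 0.79. Of 10 nonsense-mediated decay factors, 4 were lower and 1 higher (median -0.38), from Upf3a at -1.10 to the endonuclease Smg6 at 0.72. Over all entries, 28.9% were lower and 14.6% higher at this threshold.

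Of 22 SR-related proteins tested, 5 were lower and 1 higher (median -0.20), from the splicing activator Tra2b at -0.96 to Pnisr at 0.81. Of the 10 genes for kinases of SR proteins and their nuclear importer Tnpo3, 3 were higher and 2 lower, with a median of 0.03. Srpk3, the muscle-specific SR protein kinase, was at 0.0669 FPKM in MB and 8.55 FPKM in MT, a log2 change of 3.16, whereas Srpk1 went from 48.7 to 19.998 FPKM, a change of -1.24. Among the other kinases, Srpk2 stood at 0.75, and the nuclear kinases Clk1 at 0.97, Clk4 at 0.42, Clk2 at 0.06 and Clk3 at -0.59.

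In si-hnRNPL, Hnrnpl RNA itself had a log2 change of -0.14. There, 0 of the 72 genes in these 5 lists passed the threshold in either direction, against 1.36% and 0.863% of all entries. The list medians lay between -0.13 and 0.02. Srpk3 had the highest log2 change of these genes, 0.51, at 6.36 FPKM in si-NC and 9.51 FPKM in si-hnRNPL, and Thoc2 the lowest, -0.29.

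**Figure D4:**
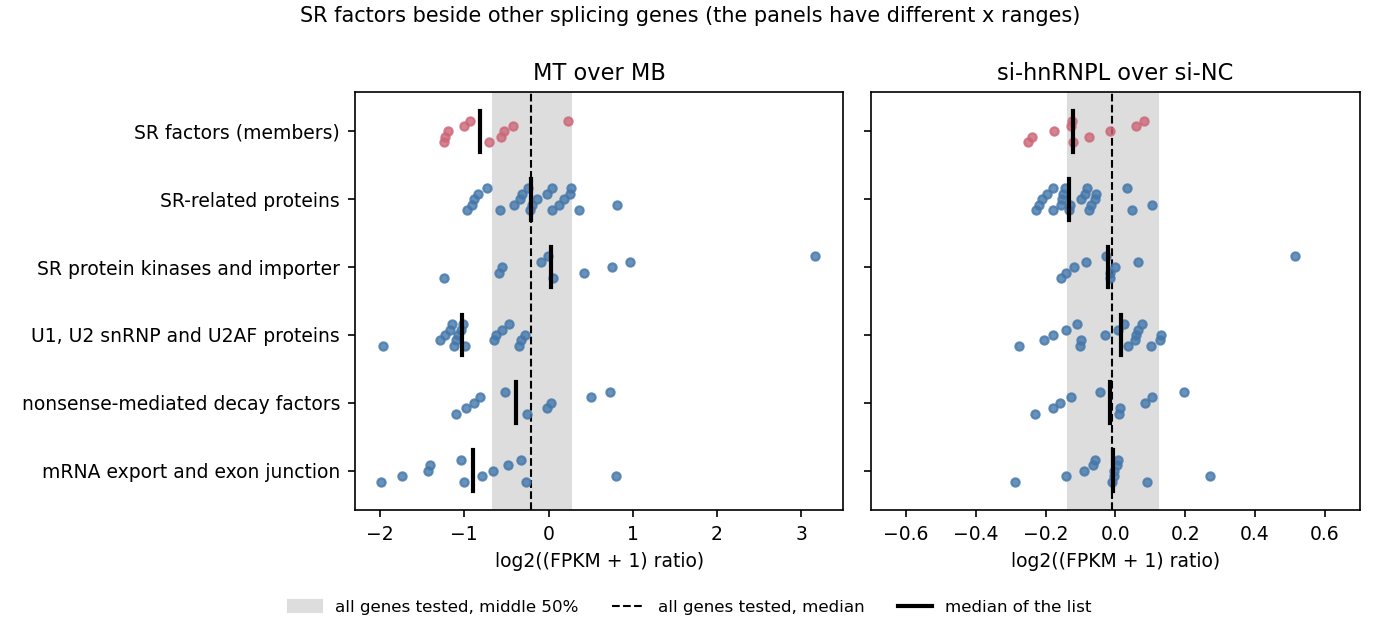
Log2((FPKM + 1) ratio) of the SR factors and of 5 lists of other splicing genes (1 point per gene, bar at the list's median), for MT over MB (left) and si-hnRNPL over si-NC (right), with the median and the middle 50% of all entries tested. On the left the SR factors, the U1, U2 and U2AF proteins and the export proteins have medians of -0.82, -1.03 and -0.90, below the middle 50%, and on the right all medians lie between -0.13 and 0.02, on a narrower axis range.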

How the data were processed

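The libraries were MB and MT (total RNA) and si-NC and si-hnRNPL MT (polyA), 1 each. Reads under 36 bp were dropped by the authors, TopHat 2.0.13 aligned the rest to mm9, and Cufflinks 2.1.1 gave the FPKM, deposited with 95% intervals. The intervals imply between 214 and 24579 fragments per member, and they cover counting and assignment error only. Whether the 4 cultures were separate is not given in the sources used here.

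Changes were log2((FPKM + 1) ratio). The interval of a change combined in quadrature the log2 widths of both libraries' intervals. Named entries with a mean FPKM of at least 1 were tested, and counted as higher or lower at 0.58 (1.5-fold, after the study's methods). No replicates exist, so no test was run. Exon lengths, GC content and transcript types came from GENCODE M1 on mm9. To correct for structure, the median change in 20 bins of exon length and of GC content was subtracted over 3 rounds. Copies were searched with minimap2 2.31-r1302, and tables were handled with Python 3.11.15, numpy 2.4.6 and pandas 2.3.3. The change script was tested on simulated data. Protein sequences were not used here.

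The text names all 10 members, Hnrnpl, Srsf12, the kinases Srpk1, Srpk2, Srpk3, Clk1, Clk2, Clk3 and Clk4, genes overlapping a member's locus, the highest and lowest gene of each list, the marker genes, and Tnpo3 as the importer of its list. Tcf12 was named after its values were seen. The members, lists and comparisons were chosen with earlier results of these data known. Alternatives were other pseudocounts, filters, fold thresholds, centring, rescaling, summing of entries with the same symbol, and the structure correction.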

Additional observations from a re-analysis of the deposited data

How the results depend on the processing

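No paired analysis was possible because each condition has 1 library, and leaving out a replicate was not possible for the same reason. No alternative reversed a called value. For MT over MB, the members' median of -0.82 became -0.91 and -0.92 with pseudocounts of 0.1 and 0.01, -0.93 at a mean FPKM of at least 10, -0.61 after centring, -0.49 after rescaling and -1.02 after the correction for exon length and GC. At a fold change of 2 with the pseudocount of 1, 3 members were lower. Srsf3 fell just short of it at -0.9995, and stood at -1.01 with pseudocounts of 0.1 and 0.01. After rescaling 4 members were lower and 1 member (Srsf5) was higher, and after the correction for exon length and GC 8 members were lower. The counts of all entries, 1672 higher and 3317 lower, became 703 higher at a mean FPKM of at least 10, 877 higher and 1551 lower at a fold change of 2, and 2937 higher and 1780 lower after rescaling. For si-hnRNPL over si-NC, the members' median of -0.12 became -0.23 after rescaling. The 153 higher entries became 249 and 265 with pseudocounts of 0.1 and 0.01, 73 at a mean FPKM of at least 10, 35 at a fold change of 2, 91 after rescaling and 47 after the correction for structure. The 97 lower entries became 191, 200, 35, 16, 192 and 62 under the same alternatives. Rescaling gave summed FPKM of the members of 618 in MB, 475 in MT, 801 in si-NC and 713 in si-hnRNPL. Unless the alternative itself set the count (a filter or a fold threshold), the cause was not tested. The lowest member, Srsf4, had the widest intervals.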
